A study of Homo sapiens with 6 samples.

Results

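A total of 1097 stretches of chromatin carried trimethylated lysine 27 of histone H3 (H3K27me3) in human endothelial cells made with vitamin C and had no such stretch close by in cells made without it. Such a stretch, called an island, joins enriched windows that lie close together. The 1097 were chosen by their score and position in the deposited island list of the library labelled Vc+, and by position in that of the library labelled Vc-. An island was kept if it lay on chromosomes 1 to 22, had a deposited score of at least 6, and had no island of the library labelled Vc- within 5 kb of either edge. The 1097 islands were 11.5% of the 9534 islands of the Vc+ list on these chromosomes and 17.1% of the 6411 with a score of at least 6. Of the other islands at that score, 4923 overlapped a Vc- island, called shared below, and 391 had one within 5 kb without overlap. The same rule turned round found 578 islands in Vc- alone, which were 6.5% of the 8893 islands of the Vc- list and 9.85% of its 5871 at a score of at least 6. These numbers follow from the rule and are descriptions. All results rest on 1 library per mark and condition, so no test between conditions could be made.

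The cells were GATA2-positive endothelial cells derived from the embryonic stem cell line H1, as the label of every sample says. In the Vc+ condition they were derived with Vc and in the Vc- condition without it, and the series title gives Vc as vitamin C. H3K27me3 and H3K4me3, the trimethylated lysine 4 of the same histone, were profiled by chromatin immunoprecipitation and sequencing, and 4 of the 6 samples had an island list. Every one of the 4 file names states the condition that its sample label does not. The labels were followed throughout, and every direction below would be the reverse if the names, not the labels, were correct. The series design text speaks of GATA2/eGFP+ and GATA2/eGFP- cells, which no sample label does. H3K4me3 was called at a gene end of all 9 endothelial marker genes in both conditions, including CDH5, KDR and TEK. It was called at 3 of 5 pluripotency markers in both, at 2 of 5 blood markers in Vc+ and 1 in Vc-, and at 2 of 5 mesenchymal markers in Vc+ and 3 in Vc-. The H3K27me3 lists on chromosomes 1 to 22 covered 51.1 Mb in Vc+ and 40.2 Mb in Vc-, with median island widths of 4.0 kb and 3.2 kb. Neither read counts nor depth is given in the lists, so the precision of a single call is unknown, and the part of the longer Vc+ list in the numbers of islands was not tested.

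H3K27me3 is laid down by Polycomb repressive complex 2, mostly over CpG-rich promoters of silent developmental genes, and is removed by the demethylases KDM6A and KDM6B. These enzymes need iron and 2-oxoglutarate, and vitamin C helps to keep the iron reduced. H3K4me3 marks CpG-rich promoters that are active or poised, and promoters with both marks are called bivalent.

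The promoters below, from RefSeq on build GRCh38.p14, show what kind of sequence lay under these islands at gene starts. Each runs 5′ to 3′ from 250 bases before to 50 after a listed transcription start, on the strand of its gene. CG dinucleotides are in capitals. They belong to 4 of the highest-scoring islands at gene starts and to IKZF1, the blood transcription factor whose start lay inside an island.
B3GNT7: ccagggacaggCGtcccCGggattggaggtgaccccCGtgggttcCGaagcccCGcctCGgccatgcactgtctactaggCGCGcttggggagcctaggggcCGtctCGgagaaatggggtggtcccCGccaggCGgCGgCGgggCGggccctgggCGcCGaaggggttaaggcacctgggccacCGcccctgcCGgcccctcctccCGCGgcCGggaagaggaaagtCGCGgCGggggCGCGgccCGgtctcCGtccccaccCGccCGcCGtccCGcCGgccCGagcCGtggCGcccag
HLA-B: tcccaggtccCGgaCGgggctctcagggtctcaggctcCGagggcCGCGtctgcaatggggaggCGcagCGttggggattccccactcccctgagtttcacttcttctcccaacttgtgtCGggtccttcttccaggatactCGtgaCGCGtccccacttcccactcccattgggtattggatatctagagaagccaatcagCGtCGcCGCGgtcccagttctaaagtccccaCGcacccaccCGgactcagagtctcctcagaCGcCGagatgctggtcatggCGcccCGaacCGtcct
MISP3: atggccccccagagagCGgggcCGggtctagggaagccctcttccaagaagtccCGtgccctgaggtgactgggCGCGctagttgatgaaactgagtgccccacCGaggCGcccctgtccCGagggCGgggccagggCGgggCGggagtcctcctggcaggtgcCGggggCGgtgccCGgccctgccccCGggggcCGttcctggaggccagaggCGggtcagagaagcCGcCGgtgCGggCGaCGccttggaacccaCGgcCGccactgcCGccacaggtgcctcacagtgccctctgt
SPHK1: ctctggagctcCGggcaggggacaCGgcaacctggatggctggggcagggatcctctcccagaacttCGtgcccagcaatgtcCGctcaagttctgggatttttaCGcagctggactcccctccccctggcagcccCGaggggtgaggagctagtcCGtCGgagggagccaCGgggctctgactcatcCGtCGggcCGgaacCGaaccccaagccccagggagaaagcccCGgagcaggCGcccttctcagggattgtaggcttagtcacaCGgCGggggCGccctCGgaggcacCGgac
IKZF1: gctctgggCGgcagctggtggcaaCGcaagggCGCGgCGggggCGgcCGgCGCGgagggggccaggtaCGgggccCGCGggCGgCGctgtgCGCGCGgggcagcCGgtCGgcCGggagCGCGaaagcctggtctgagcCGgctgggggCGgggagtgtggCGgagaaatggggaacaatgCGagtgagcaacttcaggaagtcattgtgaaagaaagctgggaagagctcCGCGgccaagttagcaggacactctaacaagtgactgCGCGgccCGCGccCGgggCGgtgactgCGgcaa

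B3GNT7 (chr2:231395460-231395759, plus strand) had 37 CG dinucleotides in 300 bases, HLA-B (chr6:31357130-31357429, minus strand) 22, MISP3 (chr19:14072536-14072835, plus strand) 25, SPHK1 (chr17:76385028-76385327, plus strand) 20 and IKZF1 (chr7:50304466-50304765, plus strand) 35. B3GNT7, MISP3 and IKZF1 thus held more than the median of 21 over all listed starts, HLA-B about that number and SPHK1 slightly fewer. The ratio of observed to expected CG was 0.59 at SPHK1, just under the 0.6 used below. The islands in Vc+ alone covered 197 listed starts of 173 protein-coding genes, and the median promoter among them held 30 CG dinucleotides (quartiles 19 and 36). The 2285 starts under shared islands had a median of 27 (17 and 36), and all 21156 listed starts 21 (7 and 31). The ratio of observed to expected CG reached 0.6 in 79.7% of promoters under islands in Vc+ alone, 79.1% of those under shared islands and 62.6% of all. Among all 14343 starts under an H3K4me3 island of Vc+, it was 87.0%. The share under islands in Vc+ alone thus lay beside that under shared islands and above that of all starts. Short motifs were searched on both strands of the same 300 bases. The motif AGATAA, bound by GATA factors, was found in 4 of the 197 promoters under islands in Vc+ alone (2.03%), in 4.81% of those under shared islands, 8.0% of the 75 under islands in Vc- alone, 4.25% of those with H3K4me3 in Vc+ and 7.89% of all. TGTGGT, a RUNX motif, was found in 10.2%, 7.35%, 8.0%, 8.21% and 11.2% of the same sets, and CCGGAAG, an ETS motif, in 7.61%, 4.07%, 4.0%, 17.7% and 12.9%. A match describes letters and not binding.

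Most islands in Vc+ alone lay away from gene starts. Of the 1097, 318 (29.0%, exact 95% interval 26.3 to 31.8, which covers counting error only) lay within 1 kb of a start of a protein-coding gene, or of either end of a gene for which no start is listed. Both cases are called gene ends here. For 261 of the 318 the end was a listed start. A further 246 (22.4%, 20 to 25) overlapped a gene body, where exons, introns and untranslated parts are not told apart, and 533 (48.6%, 45.6 to 51.6) were intergenic. Shared islands lay at a gene end in 54.0% (52.5 to 55.4), in a gene body in 12.7% and in intergenic space in 33.4%. Islands in Vc- alone, found by the mirrored rule, lay close to those in Vc+ alone in these shares, with 25.8% (22.3 to 29.5) at a gene end, 21.3% in a gene body and 52.9% in intergenic space. The intervals of Vc+ alone and Vc- alone overlapped in all 3 locations, and those of Vc+ alone and shared in none.

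**Figure D1:**
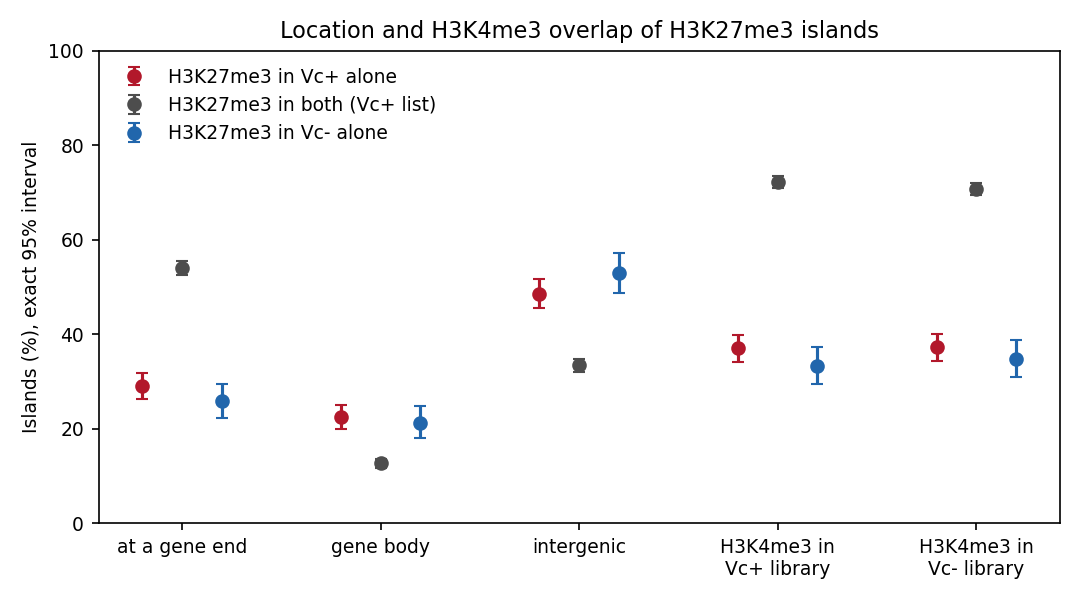
Share of H3K27me3 islands at gene ends, in gene bodies, in intergenic space and overlapping H3K4me3 of either library, in percent, for 1097 islands in Vc+ alone, 4923 shared islands and 578 islands in Vc- alone. Points are shares and bars exact 95% intervals. Islands in Vc+ alone stood at 29.0% at gene ends, against 54.0% of shared islands, and close to the 25.8% of islands in Vc- alone.

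The islands in Vc+ alone had lower scores than shared islands, with a median of 9.12 (quartiles 7.46 and 12.7) against 28.5 (13.8 and 63.9) within the same list. The score is the authors', and it chose the members, so this is a description. Location moved with score. Among islands in Vc+ alone scoring 6 to 8, 13.4% lay at a gene end, and the share was 25.8% at 8 to 12, 46.2% at 12 to 20 and 71.1% (59.5 to 80.9) of the 76 at 20 or more. Shared islands in the same score ranges had 12.1%, 24.4%, 43.6% and 68.0% at a gene end. Weighted to the score ranges of the islands in Vc+ alone, 27.3% of shared islands lay at a gene end, against the 29.0% measured for Vc+ alone. Within each score range the intervals of the gene-end shares of the 2 sets overlapped. The gene body share stayed higher, at 22.4% in Vc+ alone against 15.8% of weighted shared islands. In the range of 6 to 8 it was 24.9% (20.6 to 29.5) in Vc+ alone and 12.9% (9.69 to 16.7) in shared islands, and in the 3 ranges above 8 the intervals overlapped. These score ranges were chosen after the values were seen.

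**Figure D2:**
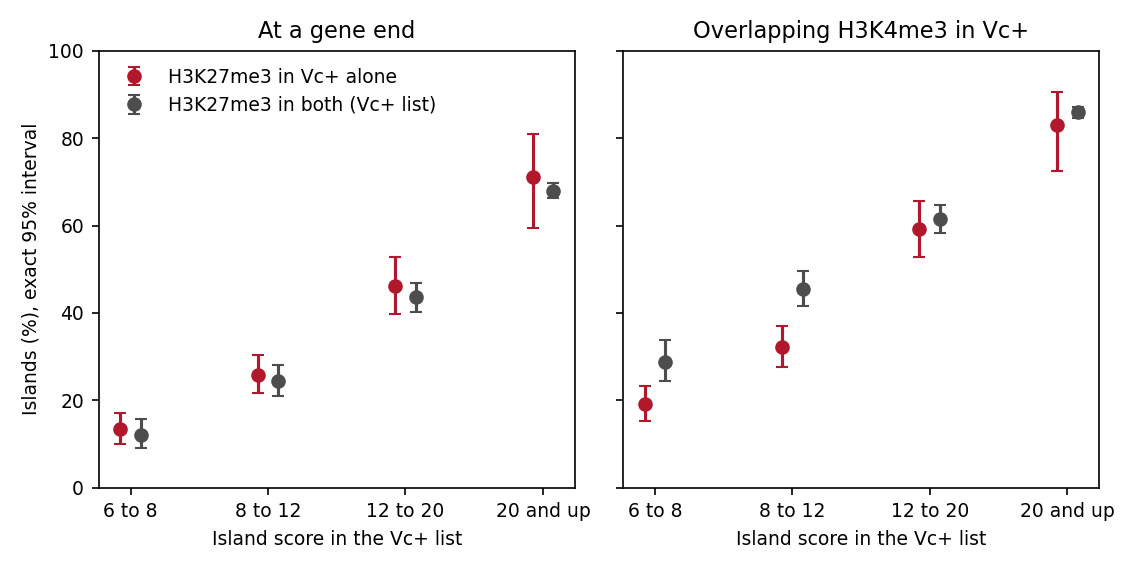
Share of islands at a gene end (left) and overlapping H3K4me3 of Vc+ (right), in percent, by island score in the Vc+ list, for islands in Vc+ alone and shared islands. Bars are exact 95% intervals. The gene-end shares of the 2 sets lay together in each range, while H3K4me3 overlap below a score of 12 was lower in Vc+ alone, at 19.1% against 28.9% and 32.3% against 45.6%.

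H3K4me3, which the choice of islands did not use, overlapped 406 of the 1097 islands in the Vc+ library (37.0%, 34.1 to 39.9) and 408 in the Vc- library (37.2%, 34.3 to 40.1). The same island carried it in both libraries in 378 cases, and 661 islands (60.3%) carried it in neither. H3K4me3 was called in Vc+ alone at 28 islands (2.55%), against 3.59% of all 6411 Vc+ islands at a score of at least 6, and in Vc- alone at 30 (2.73%), against 2.42%. Both shares were near their background. At most islands in Vc+ alone the H3K4me3 call was thus the same in both libraries. At gene ends 83.0% of the islands in Vc+ alone overlapped H3K4me3 of Vc+, in gene bodies 23.6% and in intergenic space 15.8%. The corresponding shares of shared islands were 93.3%, 54.4% and 45.0%, all higher. Shared islands were also wider at each location, and the part of width in this overlap was not tested. Islands in Vc- alone lay near those in Vc+ alone, with 78.5% (71.1 to 84.8), 29.3% (21.4 to 38.1) and 12.7% (9.22 to 17.0), and 33.2% in all, so the lower overlap was not particular to Vc+ alone. Part of that gap went with score: weighted to the same score ranges, 46.0% of shared islands overlapped H3K4me3 of Vc+, still above the 37.0% of Vc+ alone. In the range of 6 to 8 the shares were 19.1% (15.3 to 23.4) in Vc+ alone and 28.9% (24.4 to 33.8) in shared islands, and above 12 the intervals overlapped.

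H3K4me3 islands at these regions had like widths in both libraries. Over 373 H3K4me3 islands that met an island in Vc+ alone and matched exactly 1 island of the other H3K4me3 list, the median width was 1.8 kb in Vc+ and 1.8 kb in Vc-. The median log2 ratio of Vc+ over Vc- was 0.10, against 0.12 over all 17815 such pairs. H3K4me3 was wider in Vc+ at 52.0% of the pairs, against 54.2% of all pairs.

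At gene ends few H3K4me3 calls were discordant, and the intervals of both directions overlapped. Of the 318 islands there, 16 (5.03%, 2.9 to 8.04) had H3K4me3 in Vc- alone and 10 (3.14%, 1.52 to 5.71) in Vc+ alone. Among 2656 shared islands at gene ends, 33 (1.24%, 0.857 to 1.74) had it in Vc- alone and 98 (3.69%) in Vc+ alone. Weighted to the score ranges of the Vc+ alone islands, the shared shares were 2.14% in Vc- alone and 5.33% in Vc+ alone. The first of these lies below the interval of the Vc+ alone islands, and the second inside it. Neither weighted share has an interval of its own. Islands in Vc- alone at gene ends had H3K4me3 in Vc- alone in 7.38% (3.74 to 12.8) and in Vc+ alone in 9.4% (5.23 to 15.3), so discordant calls were not particular to the islands in Vc+ alone. The 5 islands of highest H3K27me3 score with H3K4me3 in Vc- alone lay at HLA-B (H3K27me3 score 35.3), DUSP8 (33.5), AMDHD1 and CCDC38 (15.5), PIWIL2 (15.2) and PSKH2 (14.7). The H3K4me3 islands of Vc- there scored 24.2, 8.8, 79.1, 10.0 and 22.6 in the same order, in a list that runs up to 1000. HLA-B encodes a class I antigen-presenting molecule, DUSP8 a phosphatase of MAP kinases and PIWIL2 a small-RNA-binding protein of the germ line. Among the islands of highest H3K27me3 score with H3K4me3 in Vc+ alone were those at FOXK1 (17.2), CALB2 (13.5), RASGEF1C (10.3) and SYT5 (9.92). The H3K4me3 islands of Vc+ there scored 144, 17.4, 20.2 and 8.29 in that order. Several of these discordant calls thus had low H3K4me3 scores.

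The islands were narrow. They spanned 0.4 to 10.8 kb with a median of 3.2 kb and covered 3.78 Mb in all. The median was 2.8 kb at gene ends and 3.4 kb in gene bodies and intergenic space, against 5.4 kb, 4.0 kb and 5.0 kb for shared islands and 2.2 kb, 2.4 kb and 2.4 kb for islands in Vc- alone. Within score ranges the medians over all locations were 3.2 kb in Vc+ alone against 3.8 kb in shared islands at 6 to 8. They were 3.4 kb against 3.6 kb at 8 to 12 and 3.2 kb against 3.8 kb at 12 to 20. At 20 or more they were 2.8 kb against 6.2 kb. That range held 62.0% of shared islands and 6.93% of those in Vc+ alone. The gap in width was thus small below a score of 20 and large from 20 up. The score was a median of 12.2 at gene ends, 8.7 in gene bodies and 8.25 in intergenic space. Gene-end islands were thus the narrowest and highest-scoring of the 3 kinds. The order of scores was the same in shared islands (44.7, 20.6 and 15.6) and in islands in Vc- alone (10.2, 9.19 and 7.74). By width, gene-end islands were also the narrowest in Vc- alone but the widest among shared islands. The widest islands were an intergenic one of 10.8 kb, 41.9 kb from STXBP5 and scoring 19.8, and one of 10.2 kb across the start of ANKRD1 (19.9), a stretch-responsive gene of muscle and endothelium. An intergenic island of 10.0 kb on chromosome 14 (12.7), one of 9.4 kb in CYP4Z1 (14.2) and an intergenic one of 9.2 kb on chromosome 1 (29.2) followed. H3K4me3 was absent from the first 4 of them in both libraries and present at the fifth in both.

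**Figure D3:**
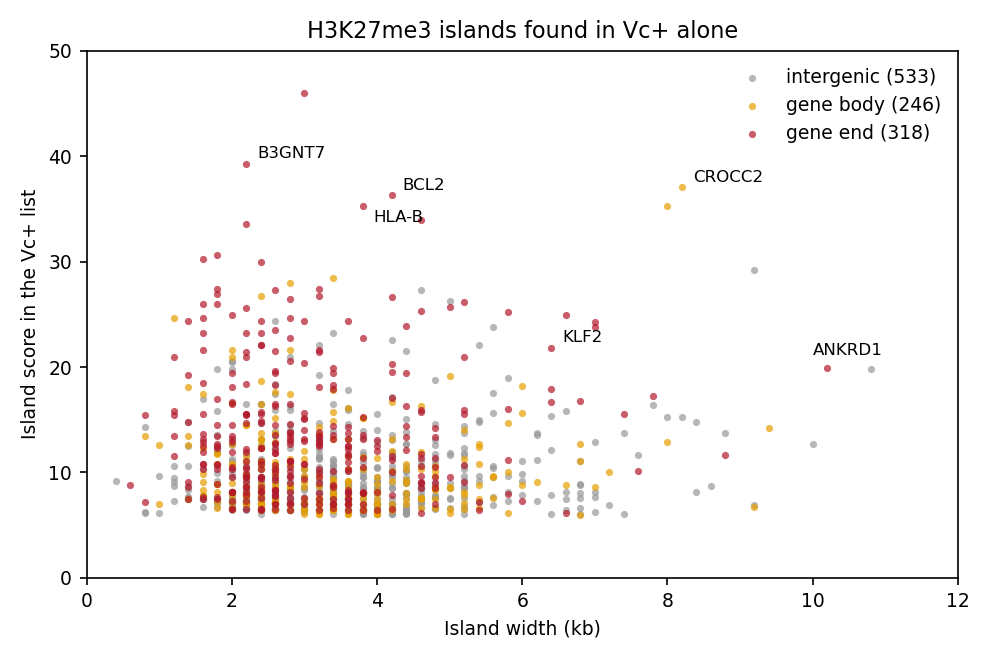
Score of each of the 1097 islands in Vc+ alone in the Vc+ list against its width in kb, 1 point per island, coloured by location. Gene-end islands (318) made up most of the points above a score of 20, at widths mostly under 6 kb.

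For 42.5% of the islands the nearest Vc- island was more than 100 kb away, and for 25.5% it was within 20 kb. The median distance was 67.6 kb, and 131 kb at gene ends, 74.9 kb in gene bodies and 47.6 kb in intergenic space. Gene-end islands thus had the longest median distance, with 55.7% over 100 kb from the Vc- list. The rule itself chose islands by this distance, so it is a description. The distance was not measured for the other sets, and whether this order is particular to islands in Vc+ alone was not tested. A shared island lay within 20 kb of 206 of the 1097 (18.8%), and 139 neighbouring pairs of islands in Vc+ alone lay within 50 kb of each other. Islands just inside and just outside the rule differed little. The 5 lowest scores kept were 6.003 to 6.016 and the 5 highest left out were 5.9951, and the shortest distance kept was 5.2 kb against 5.0 kb for the longest left out.

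**Figure D4:**
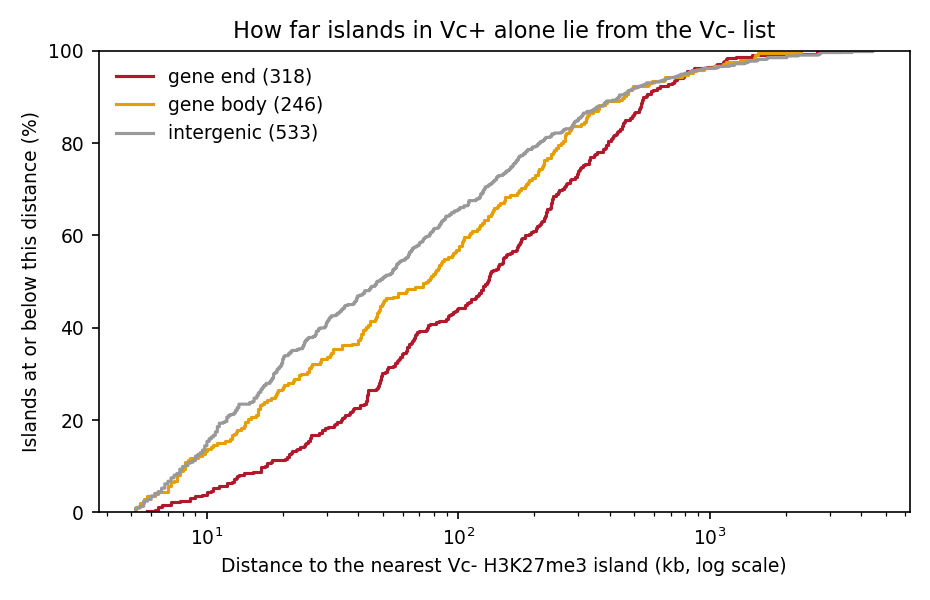
Cumulative share of islands in Vc+ alone, in percent, by distance to the nearest H3K27me3 island of the Vc- list in kb (log scale), for 318 gene-end, 246 gene-body and 533 intergenic islands. Median distances, a quantity that the rule chose islands by, were 131 kb, 74.9 kb and 47.6 kb, the longest at gene ends.

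The gene-end islands touched 341 protein-coding genes, 1.78% of the 19126 on these chromosomes, and 25 islands touched more than 1 gene. Starts were listed for 276 of the genes, which made 277 pairs of a gene and an island. The island covered the start in 185 pairs (66.8%), and its centre lay a median of 0.216 kb downstream (quartiles -0.665 and 1.13 kb). A Vc- H3K27me3 island lay elsewhere over the gene at 32 of the 341. The genes at the 12 highest-scoring islands had varied roles. The island at LOC102723996 on chromosome 21 scored 46.0, close to the largest stretch without genes on its chromosome (under 5 Mb away). B3GNT7, a glycosyltransferase, had an island of 2.2 kb (score 39.3, chr2:231394601-231396800) centred on its start. At BCL2, which encodes an inhibitor of apoptosis, an island of 4.2 kb (36.3, chr18:63315401-63319600) began 0.169 kb downstream of a listed start. No Vc- island lay within 717 kb of it.

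At HLA-B the island was 3.8 kb wide (chr6:31355801-31359600), covered the start and lay 1470 kb from the Vc- list. H3K4me3 there was 1.4 kb wide in Vc- and not called in Vc+. Class I genes resemble each other, so reads could be placed at another copy and these calls are uncertain. At DUSP8 the island was 2.2 kb wide (chr11:1572401-1574600), with H3K4me3 of 0.6 kb in Vc- and none called in Vc+. A second island in Vc+ alone (24.4) lay 4.65 kb beyond the other end of DUSP8, without H3K4me3. The islands at MISP3 (34.0), CLDN23 (30.6), a claudin of tight junctions, SPHK1 (30.3), which makes sphingosine 1-phosphate, and PRKCH (30.0), a protein kinase C, followed. Islands of 27.4 lay at SOX18, an endothelial transcription factor, at BNIP3, which acts in mitophagy, and at NPR1, which binds natriuretic peptides. H3K4me3 was called in both libraries at 10 of the 12.

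**Figure D5:**
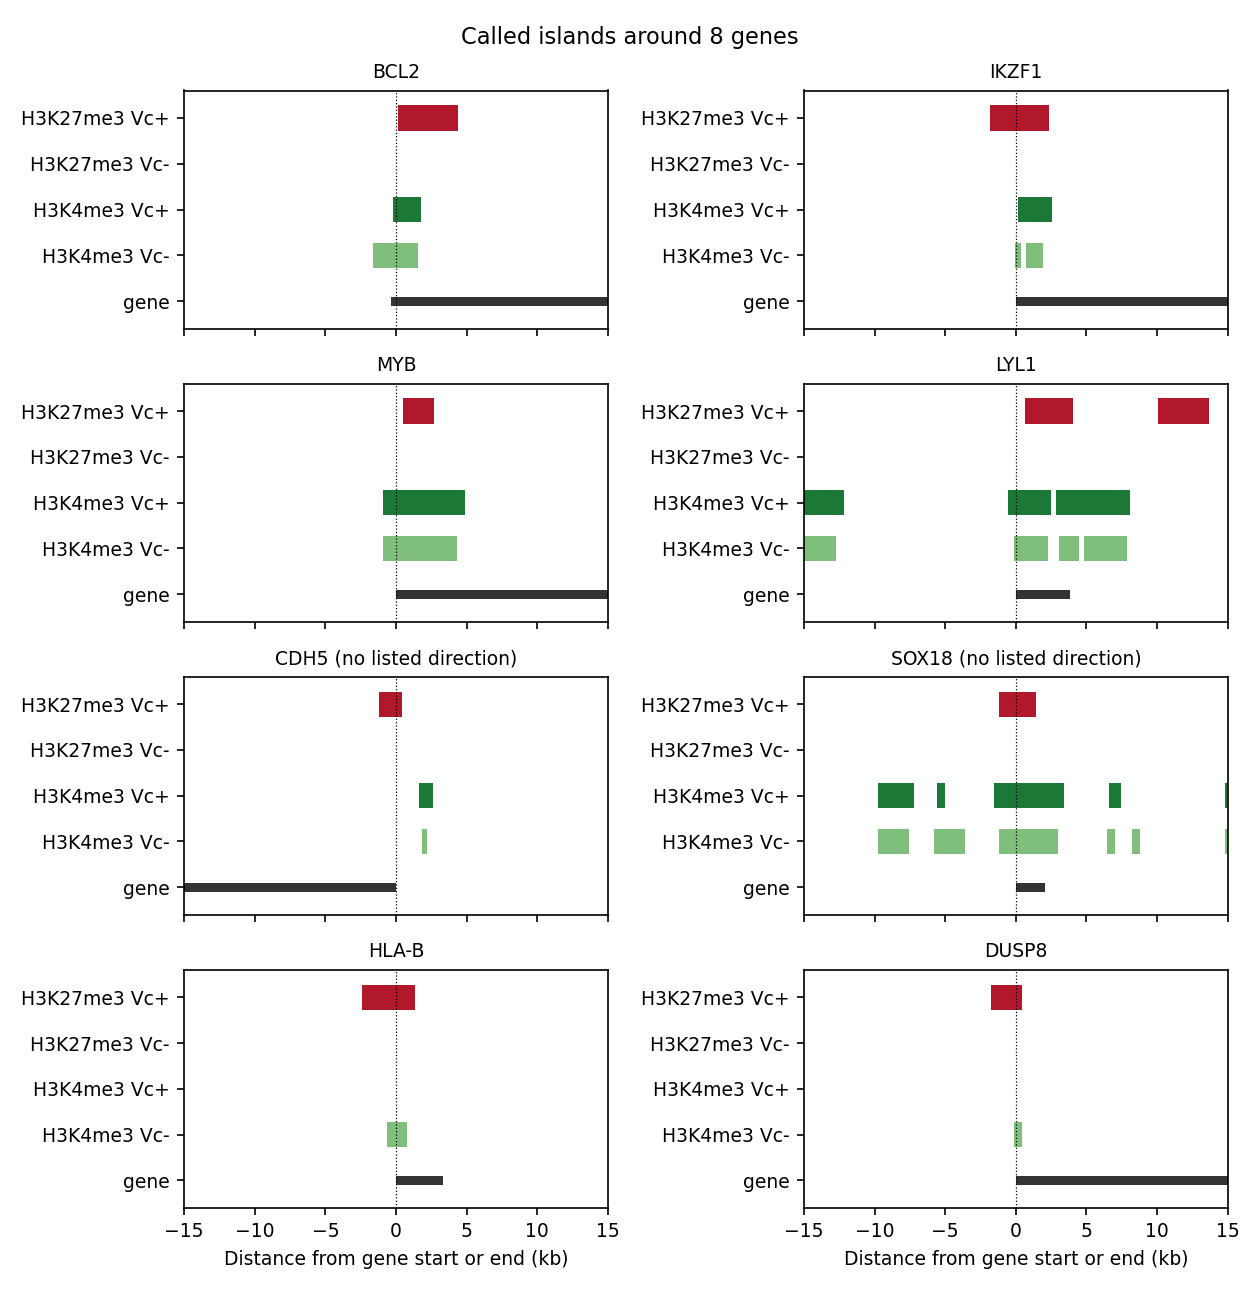
Called islands of H3K27me3 and H3K4me3, Vc+ above Vc-, and the gene span around 8 genes, in kb from a gene start (downstream to the right) or, for CDH5 and SOX18 with no listed direction, from the gene end nearest the island (higher coordinates to the right). Bars are island extents, not signal heights. H3K27me3 was called in Vc+ alone at all 8, while H3K4me3 near the line was called in both at 5, lay beyond the H3K27me3 island at CDH5 and was called in Vc- alone at HLA-B and DUSP8.

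Genes of the blood and endothelial lineages, which the series title concerns, were read from lists. An end of 3 of 25 blood regulators with coordinates lay at an island in Vc+ alone, and of 0 at an island in Vc- alone, against 1.78% and 0.842% of all protein-coding genes. A further 9 had an end at a shared island, where 14.7% of all protein-coding genes had one. IKZF1, which encodes Ikaros, had an island of 4.2 kb (20.3, chr7:50301601-50305800) across its 5′ end. Its H3K4me3 covered 2.4 kb in 1 island in Vc+ and 1.6 kb in 2 islands in Vc-. MYB, a factor of definitive blood formation, had an island of 2.2 kb (18.4, chr6:135181801-135184000) that began 0.493 kb downstream of the start. It lay wholly inside an H3K4me3 island of 5.8 kb in Vc+ and 5.2 kb in Vc-. LYL1, a transcription factor of blood stem cells related to TAL1, had one of 3.4 kb (13.1, chr19:13098801-13102200) over the gene downstream of its start. H3K4me3 was called over it in 2 islands in Vc+ and 2 in Vc-.

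Of 20 endothelial genes 2 had an end at an island in Vc+ alone, 0 at one in Vc- alone and 5 at a shared one. The shares of all protein-coding genes were 1.78%, 0.842% and 14.7%. SOX18 had an island of 2.6 kb (chr20:64046401-64049000) at its lower-coordinate end, within H3K4me3 of 5.0 kb in Vc+ and 4.2 kb in Vc-. CDH5, which encodes VE-cadherin, had one of 1.6 kb (13.7, chr16:66403601-66405200) at its higher-coordinate end, without H3K4me3. The H3K4me3 called at a CDH5 end in both libraries lay at the other end of the gene. No direction was listed for CDH5 or SOX18, so neither island is shown to lie at a gene start. HEY1, which Notch signalling switches on, was the member among 19 arterial and Notch genes. Its island of 2.4 kb (24.4) lay under H3K4me3 of 7.0 kb in Vc+ and 7.6 kb in Vc-. HEY1 had no listed direction either. None of 24 blood cell markers and 9 venous and lymphatic genes had one at a gene end, while 3 and 4 had a shared island there. The nearest protein-coding gene to an intergenic island of 5.6 kb (23.8, chr1:207956601-207962200) was CD34, a surface marker of blood stem cells and endothelium, 45.5 kb away. That island carried H3K4me3 in both libraries and lay 314 kb from the Vc- list. Since these lists were chosen with earlier results of the same data known, their counts are no independent support of a direction.

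Lists of other lineages and functions held few of these islands. Counts of 0 to 2 genes are to be read against 1.78% of all genes in Vc+ alone and 0.842% in Vc- alone, shares at which lists of this size can hold none. No neural ectoderm gene of 22 had one, while 22 of 22 lay at a shared island, against 14.7% of all genes. None of 14 endoderm, 13 pluripotency and 13 housekeeping genes had one either, while 7, 4 and 0 of them lay at a shared island. In the lists that follow, shared islands met 5 cardiac, 4 mesenchymal, 8 TGF-β, BMP and WNT and 7 chromatin modifier genes. They also met 1 class I antigen presentation, 3 BCL2 family and 1 dual-specificity phosphatase gene. The cardiac list had GATA5 (14.5) among 15, a zinc-finger factor of the heart, and the mesenchymal list MCAM (14.5) among 22, an adhesion molecule of mural cells and endothelium. TGFB2 (11.9), a TGF-β ligand, was the member of 25 TGF-β, BMP and WNT genes in Vc+ alone, and NOG, a BMP antagonist, the member in Vc- alone. PHC2 (14.2), a Polycomb repressive complex 1 subunit, was the member of 23 chromatin modifiers. Its island lay upstream of the nearest listed start without covering it, and a listed PHC2 start lay under a shared island. Class I antigen presentation had HLA-B among 15 in Vc+ alone and HLA-G in Vc- alone. BCL2 and BNIP3 were 2 of 18 BCL2 family genes, and DUSP2 (26.9) and DUSP8 were 2 of 9 dual-specificity phosphatase genes.

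Some further genes at these islands were picked after their values were seen and support nothing. KLF2, a flow-responsive factor of endothelium, had an island of 6.4 kb (21.8, chr19:16322001-16328400) across its start, with H3K4me3 of 4.6 kb in Vc+ and 4.0 kb in Vc-. TGFBR3, a TGF-β co-receptor, had one of 2.2 kb (21.4), VASH1, an angiogenesis inhibitor made by endothelium, one of 2.0 kb (13.5), and THSD1, an endothelial surface protein, one of 2.2 kb (15.5). H3K4me3 was called at all 4 in both libraries. PTGS2, which encodes an inducible cyclooxygenase, had an island of 2.2 kb (11.1) 1700 kb from the Vc- list, and IFIT5 (12), NOD2 (10.3), GDF15 (9.61) and CGAS (9.31) had islands too.

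In gene bodies the highest-scoring islands lay in CROCC2 (37.1, 8.2 kb) and NRXN3 (35.3, 8.0 kb), a neuronal adhesion gene, and both lacked H3K4me3 in both libraries. The one in NRXN3 lay 5.6 kb from a Vc- island, just beyond the limit. Those in PDE2A (28.5), a phosphodiesterase, CRACDL (26.7) and PCOLCE (24.6) carried H3K4me3 in both, and the one in NKPD1 (27.9) in Vc+ alone. The 246 islands met 255 genes.

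Intergenic islands lay a median of 42.4 kb from the nearest protein-coding gene (quartiles 12.8 and 158 kb). Of the 533, 112 were within 10 kb of a gene and 172 more than 100 kb away. An end of a long non-coding RNA gene was within 1 kb of 50 of them, 76 others lay inside such a gene and 407 met none. A share of 22.1% (18.7 to 25.9) lay close to (within 5 Mb of) the largest stretch of a chromosome without genes, against 37.0% of shared and 44.8% (39.1 to 50.5) of Vc- alone intergenic islands. Among intergenic islands the share in Vc+ alone was the lowest of the 3, and its interval did not overlap those of the others. Over all locations the shares were 14.5% (12.5 to 16.7) in Vc+ alone, 16.1% (15.1 to 17.2) in shared and 26.5% (22.9 to 30.3) in Vc- alone. There the intervals of Vc+ alone and shared overlapped. None of these shares was weighted by score. The highest-scoring intergenic island, of 29.2, was itself near such a stretch, 469 kb from H3-7. The next lay 10.7 kb from LOC124903391 (27.3), 40.7 kb from ZNRF4 (26.3) and 4.65 kb from DUSP8, followed by the one near CD34 and one 64.7 kb from LOC124902171 (23.2), which was also within 5 Mb of a gene-free stretch.

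A miRNA hairpin lay inside 7 of the islands in Vc+ alone (0.638%), against 50 shared islands (1.02%) and 2 in Vc- alone (0.346%). These shares are per island and not per length. Islands in Vc+ alone covered 3.78 Mb, shared islands 34.3 Mb and islands in Vc- alone 1.47 Mb, so the shares rank nothing. RefSeq mature sequences are shown for miR-193a and miR-152, each 5′ to 3′ with its seed (bases 2 to 8) in capitals.
hsa-miR-193a-5p: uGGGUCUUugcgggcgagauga
hsa-miR-193a-3p: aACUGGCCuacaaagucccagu
hsa-miR-152-3p: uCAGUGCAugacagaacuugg
hsa-miR-152-5p: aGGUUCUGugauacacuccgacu

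The island at MIR193A (10.6) was 1.2 kb wide (chr17:31559601-31560800), intergenic, and 69.8 kb from the Vc- list. The one at MIR152 (9.52), inside the COPZ2 gene, was 3.2 kb wide (chr17:48036001-48039200) and covered a listed start of COPZ2. Both carried H3K4me3 in both libraries, as did the islands with MIR1199 at MISP3 and MIR3189 at GDF15. Those with MIR1224, MIR10522 and MIR4476 carried none.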

How the data were processed

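Tools named in the submitters' processing notes are Bowtie2, SICER and deepTools. The same notes list hg38 and GRCh38 as builds, and give neither settings nor versions. How the 2 inputs were used is not given in the sources used here. Each deposited list gives islands with the authors' score. Its scale is not stated. Values run from just above 2 to a highest value of 1000, and scores were used only within a list. All island widths were multiples of 200 bp, and coordinates are counted from 1. No depth or read count was given. Samples were grouped by their titles.

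Distances count the bases between islands, and overlap means at least 1 bp. Genes were 19126 protein-coding RefSeq genes of GRCh38.p14, of which 15101 matched a listed start in the promoter table. Where starts were listed, these and the outer 5′ end were used, otherwise both ends of the gene. Intervals of shares are 95% Clopper-Pearson intervals (exact). They cover only counting error, and neighbouring islands are not independent. No test was made.

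The islands and the 16 gene lists were chosen with earlier results of these data known. Genes were named by rule: the 12 highest-scoring islands at gene ends, 6 in gene bodies and 6 intergenic, the 5 widest, list members, and 5 for each discordant H3K4me3 call, of which 1 is not reported here. Others are said to be picked afterwards. The highest promoter, at LOC102723996, was left out of the printed sequences. Code was tested on simulated data and checked against bedtools 2.31.1, which also gave 1097 islands. Python 3.11.15, numpy 2.4.6, pandas 2.3.3 and scipy 1.17.1 were used.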

Additional observations from a re-analysis of the deposited data

How the results depend on the processing

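Of 68 recomputed values of 7 results, 38 stayed within 1.5 times the count or inside the interval of the share, and 30 did not. At a score of at least 10 there were 469 islands in Vc+ alone, with 45.6% at a gene end, 19.6% in a gene body, 34.8% intergenic, and 55.9% and 55.7% overlapping H3K4me3 of Vc+ and Vc-. At a score of at least 3 there were 2129, with 17.7% at a gene end, 61.7% intergenic, and 23.3% and 22.7% overlapping H3K4me3 of Vc+ and Vc-. Where only overlap with the Vc- list removed an island, 24% lay at a gene end, 54% were intergenic, and 31.4% and 31.3% overlapped H3K4me3 of Vc+ and Vc-. Where only Vc- islands of score at least 6 removed one, these were 24.4% and 54.8%, with 33.9% overlapping H3K4me3 of Vc-. Without islands near the largest stretch lacking genes (5 Mb), 44.2% were intergenic. The gene-end share was 25.8% with a window of 500 bp and 32.1% with 2 kb. With long non-coding RNA genes added, 35.9% lay at a gene end, 27% in a gene body and 37.1% in intergenic space. With ends taken only from genes that have a listed start, a choice made after the data were seen, 23.8% lay at a gene end and 27.3% in a gene body. Counting H3K4me3 within 1 kb gave 40.3% in Vc+ and 40.8% in Vc-, and asking for overlap of at least 50% of the narrower island 31.3% and 32.2%. The number of genes stayed within 1.5 times in each of its alternatives. No paired analysis was possible because each mark and condition had 1 library. Whether another culture would give the same islands, and whether H3K27me3 below the calling threshold was present in Vc-, is not measured by these lists.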

Other observations

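On chromosome X, left out by the rule, 22 of 103 Vc+ islands with a score of at least 6 had no Vc- island within 5 kb, and 10 of 95 Vc- islands had no Vc+ island within 5 kb.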
